A study of Mus musculus with 5 samples.

Results

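Intermediate filaments are rope-like protein polymers that give a cell and its nucleus mechanical strength. In heart muscle, desmin filaments tie the Z-discs of neighbouring myofibrils to each other, to the intercalated discs and to the nucleus, while vimentin filaments are typical of fibroblasts, endothelial cells and leukocytes. Lamins form a separate meshwork under the nuclear envelope of nearly all cells, and nestin is best known from progenitor cells, regenerating muscle and newly formed vessels.

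The intermediate filament genes examined here were Nes, Vim, Des, Synm, Krt8, Krt18, Lmna, Lmnb1 and Sync, chosen by gene symbol. Each of the 9 had 1 probe set, so they make up 9 of the 21789 probe sets that carry a single gene symbol in the annotation of the array, out of 35556 in the table. Gene expression was measured on Affymetrix Mouse Gene 1.0 ST arrays, 1 for each of 5 heart grafts. In the I/R group (n = 3), hearts of C57BL/6 donors were kept for 18 h at 4 °C in UW solution, a preservation fluid, and then implanted into C57BL/6 recipients. In the non-I/R group (n = 2), C57BL/6 hearts were implanted into C57BL/6 recipients without this cold storage. In both groups the mice were 8 weeks of age, carried no transgene named in the labels, and received a heterotopic graft in the peritoneal cavity joined to the aorta and the vena cava. Harvest of the grafts for these arrays was at 24 h by the labels, whereas the account of the results in the study gives day 2. The comparison therefore asks what prolonged cold storage added to implantation, since non-I/R grafts were also stopped, cut out and reperfused and are no untouched hearts.

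Values are RMA signals on the log2 scale, on which a step of 1 is a doubling. RMA subtracts background, makes the distributions of the arrays alike and reduces each probe set to a single value, and a difference is I/R minus non-I/R throughout. Array medians lay between 6.58 and 6.65. Of the 21789 probe sets, 53.8% had tied values between arrays, and 3.47% had equal values on all 5 arrays. All 10 cardiomyocyte markers were bright, with mean log2 signals of 10.78 to 13.59. The atrial marker Myl7 differed between grafts within each group, at 6.72, 11.08 and 8.56 on the log2 scale in I/R 1, 2 and 3, against 10.67 and 5.52 in non-I/R 1 and 2, and by limma none of 6 atrial markers passed the unadjusted threshold of 0.05. The 4 filament genes that did pass it were therefore also computed without I/R 2 and non-I/R 1, the grafts with the highest Myl7 signal. The 5 grafts can be split in 10 ways, so that an exact permutation test cannot go below a two-sided p of 0.1. The labels name grafts and not animals, so a p-value here covers only graft-to-graft spread, part of which may be technical.

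Of the 9 genes, 4 had higher signals in I/R grafts at an unadjusted p under 0.05 by limma, namely Nes, Vim, Lmna and Lmnb1. Over all probe sets tested, 7.64% were higher at this threshold. None of the 9 was lower, against 7.35% of all probe sets. The same 4 genes had groups that did not overlap with I/R on top, which held for 15.8% of all probe sets, and none had separated groups with I/R below, against 16.2%. Nes alone was also more than 2-fold higher, a criterion met upwards by 0.496% of all probe sets. After Benjamini-Hochberg adjustment over all probe sets by limma, none of the 9 genes passed 0.05 (smallest adjusted p = 0.282), nor did any probe set on the array (0%). Mean signals were higher in I/R grafts for 8 of the 9 genes and equal for Synm, and the median log2 difference of the 9 was 0.18, against -0.01 over all probe sets tested.

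**Figure D1:**
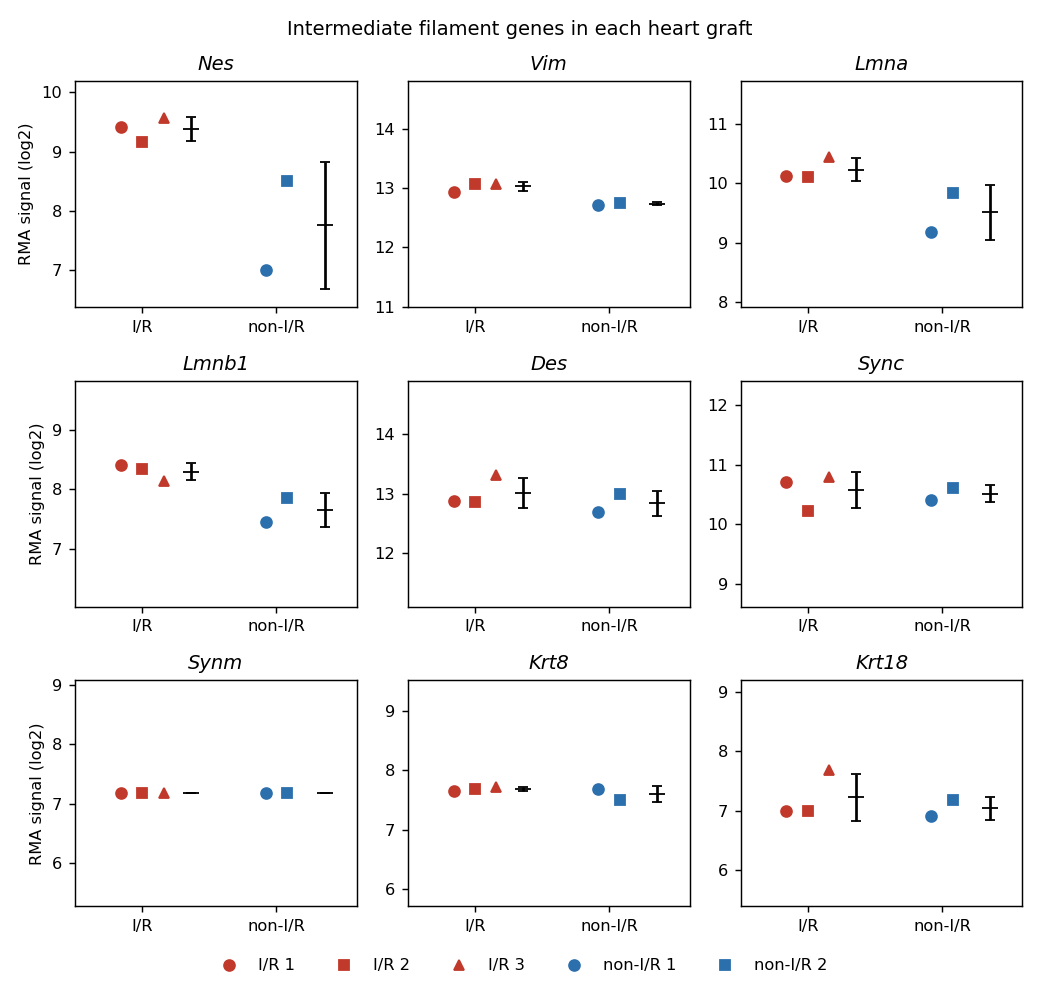
RMA signal (log2) of the 9 genes in each graft, I/R left and non-I/R right in every panel, with the group mean and SD as bars beside the points and the same span of log2 units on every axis. The groups are apart for Nes, Vim, Lmna and Lmnb1 and overlap or are equal in the other 5 panels, and the 2 non-I/R grafts are farthest apart in Nes, at 7.00 and 8.51.

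Bases before the start site are shown for the 3 genes that passed the unadjusted threshold and have an entry in the promoter table, because these are the stretches where motifs of general promoter factors lay. Lmnb1 also passed that threshold. The sequences are from RefSeq (GRCm38.p6) and run from 100 bases before the start site up to it, on the strand of the gene. They are Nes on chr3:87970993-87971092 (+), Vim on chr2:13574211-13574310 (+) and Lmna on chr3:88503353-88503452 (-), the last from the farther upstream of 2 Lmna starts in the table. Capitals mark a GC box (GGGCGG, here read as its reverse complement CCGCCC) or a TATA box (TATAAA).
Nes: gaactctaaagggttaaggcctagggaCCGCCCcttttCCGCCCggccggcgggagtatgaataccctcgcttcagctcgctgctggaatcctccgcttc
Vim: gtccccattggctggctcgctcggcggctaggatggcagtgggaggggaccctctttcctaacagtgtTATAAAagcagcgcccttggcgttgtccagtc
Lmna: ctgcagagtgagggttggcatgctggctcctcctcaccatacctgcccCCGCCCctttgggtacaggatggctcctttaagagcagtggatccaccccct
The TATA box of Vim began 32 bases before its start site, while the GC boxes nearest the start began 62 bases before it in Nes and 52 in Lmna. In windows of 250 bases before the start, read on both strands, Vim was the only 1 of 8 members in the table with a TATA box, a motif held by 12.4% of 32851 promoters. A GC box lay in 4 of the 8, those of Nes, Des, Lmna and Sync, and in 32.7% of all promoters. The AP-1 motif TGANTCA, which immediate early factors bind, was in none of the 8 windows and in 6.75% of all promoters. Neither box was thus common to all 3 of the genes printed above.

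Nestin (Nes), a large filament protein that assembles only together with partners such as vimentin or desmin, had the widest difference of the 9 genes. Its log2 signal was 9.42, 9.16 and 9.57 in I/R 1, 2 and 3, and 7.00 and 8.51 in non-I/R 1 and 2. Every I/R graft lay above both non-I/R grafts, the nearest pair being 0.65 apart, but the non-I/R grafts themselves differed by 1.51, a gap that only 0.197% of all probe sets exceeded. The means were 9.38 ± 0.206 in I/R and 7.76 ± 1.07 in non-I/R grafts (SD, n = 3 and 2). This gave a log2 difference of 1.63 (SE 0.517, 95% interval 0.16 to 3.09, limma unadjusted p = 0.037, adjusted p = 0.313), or 3.08-fold, and 0.294% of probe sets had a larger difference in either direction. The size rested on non-I/R 1: without it the difference was 0.87, against 2.38 without non-I/R 2. Without any 1 of the 3 I/R grafts the unadjusted limma p was 0.0852 to 0.11, and by the methods' t-test on all 5 grafts it was 0.0687.

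Vimentin (Vim), the main filament protein of mesenchymal cells and leukocytes, had a small difference with little spread. It measured 12.93, 13.07 and 13.07 on the log2 scale in I/R 1, 2 and 3, against 12.72 and 12.76 in non-I/R 1 and 2. All I/R grafts were above both non-I/R grafts, with 0.18 between the nearest pair. The means of 13.03 ± 0.0813 in I/R and 12.74 ± 0.0237 in non-I/R grafts differed by 0.29 (SE 0.0577, 95% interval 0.12 to 0.45, limma unadjusted p = 0.00848, adjusted p = 0.282), or 1.22-fold. A larger difference was found for 22.5% of probe sets. Leaving out 1 graft at a time gave 0.26 to 0.33, although the unadjusted p by limma was 0.0578 without non-I/R 1. Whether such a difference reflects the number of cells that express the gene or the RNA per cell cannot be told apart in whole grafts, here and for each gene below.

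Nes and Vim, whose proteins assemble together, were set against each other graft by graft. The difference for Nes exceeded that for Vim by 1.34 on the log2 scale (SE 0.577). After centring each gene on its own mean, Nes minus Vim was 0.67, 0.27 and 0.67 in I/R 1, 2 and 3, and -1.54 and -0.06 in non-I/R 1 and 2. The groups did not overlap, which gave the smallest two-sided p that the exact permutation test allows (p = 0.1, adjusted p = 0.4 over the 4 pairs of genes compared here).

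Desmin (Des), the filament protein of muscle, did not separate the groups. Its log2 signal was 12.87, 12.86 and 13.31 in I/R 1, 2 and 3, and 12.69 and 12.99 in non-I/R 1 and 2. Non-I/R 2 lay above 2 of the 3 I/R grafts. Means were 13.01 ± 0.256 in I/R and 12.84 ± 0.213 in non-I/R grafts, a log2 difference of 0.18 (SE 0.197, 95% interval -0.38 to 0.73, limma adjusted p = 0.651). An increase or a decrease of desmin mRNA within that interval was not resolved by 5 arrays. The log2 difference of Vim exceeded that of Des by 0.11 (SE 0.198), with overlapping groups (exact permutation test, two-sided p = 0.6, adjusted p = 0.9 over the 4 pairs).

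Syncoilin (Sync) and synemin (Synm) are filament proteins of muscle that link desmin to the dystrophin-associated complex. Sync measured 10.70, 10.22 and 10.80 on the log2 scale in I/R 1, 2 and 3, against 10.40 and 10.61 in non-I/R 1 and 2. The I/R grafts were both the lowest and the highest, and the difference was 0.07 (SE 0.215, 95% interval -0.54 to 0.68, limma adjusted p = 0.885). The Synm probe set read 7.18 in all 5 grafts, so it gives a difference of 0 that carries no information on spread. Among the 9 genes Synm was the only 1 with a single value on all arrays.

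Keratins 8 and 18 (Krt8, Krt18) pair with each other in simple epithelia and mesothelium. Krt8 was 7.65, 7.69 and 7.72 on the log2 scale in I/R 1, 2 and 3, and 7.69 and 7.51 in non-I/R 1 and 2, with I/R 2 and non-I/R 1 tied. Krt18 was 7.00 in I/R 1 and 2 and 7.68 in I/R 3, against 6.90 and 7.18 in non-I/R 1 and 2. In both genes the groups overlapped, and only I/R 3 had a Krt18 signal above both non-I/R grafts. The log2 differences were 0.09 for Krt8 (SE 0.0667, 95% interval -0.10 to 0.28, limma adjusted p = 0.513) and 0.18 for Krt18 (SE 0.277, 95% interval -0.60 to 0.97, limma adjusted p = 0.723). Krt18 had a difference of -0.04 without I/R 3, and Krt8 one of -0.0034 without non-I/R 2. Without non-I/R 1, Krt8 differed by 0.18 and passed the unadjusted threshold (limma unadjusted p = 0.0196). The difference of Krt8 was below that of Krt18 by 0.10 (log2 difference of differences -0.10, SE 0.325, exact permutation test, two-sided p = 0.8, adjusted p = 0.9 over the 4 pairs). Mesothelial and epithelial markers, which the outer surface of a graft could carry, were dim, at mean log2 signals of 3.87 to 7.40, and 0 of 11 differed at an unadjusted p under 0.05 by limma.

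Lamin A/C (Lmna), which stiffens the nucleus, had a signal of 10.13, 10.11 and 10.45 on the log2 scale in I/R 1, 2 and 3, and 9.19 and 9.84 in non-I/R 1 and 2. All I/R grafts lay above both non-I/R grafts, with 0.27 between the nearest pair and 0.66 between the non-I/R grafts. The means of 10.23 ± 0.189 in I/R and 9.51 ± 0.464 in non-I/R grafts differed by 0.72 (SE 0.251, 95% interval 0.0063 to 1.42, limma unadjusted p = 0.0488, adjusted p = 0.33), or 1.64-fold. It lies just inside the threshold, and leaving out any graft but non-I/R 2 put it outside, as did the methods' t-test (unadjusted p = 0.0851). The difference was 0.39 without non-I/R 1 (limma unadjusted p = 0.151) and 1.04 without non-I/R 2.

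Lamin B1 (Lmnb1), the farnesylated lamin that stays bound to the inner nuclear membrane, measured 8.40, 8.34 and 8.13 on the log2 scale in I/R 1, 2 and 3, against 7.45 and 7.85 in non-I/R 1 and 2. The groups were 0.28 apart. The means of 8.29 ± 0.140 in I/R and 7.65 ± 0.283 in non-I/R grafts differed by 0.64 (SE 0.162, 95% interval 0.18 to 1.10, limma unadjusted p = 0.0181, adjusted p = 0.286), or 1.56-fold. Differences with 1 graft left out ran from 0.44 to 0.84, the lowest without non-I/R 1 (limma unadjusted p = 0.0635), and without I/R 1 or I/R 2 the unadjusted p by limma was 0.0668 and 0.0665. In I/R grafts Lmnb1 was lowest in I/R 3, the graft in which Lmna was highest. The log2 difference of Lmna exceeded that of Lmnb1 by 0.07 (SE 0.262), with overlapping groups (exact permutation test, two-sided p = 0.9, adjusted p = 0.9 over the 4 pairs).

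**Figure D2:**
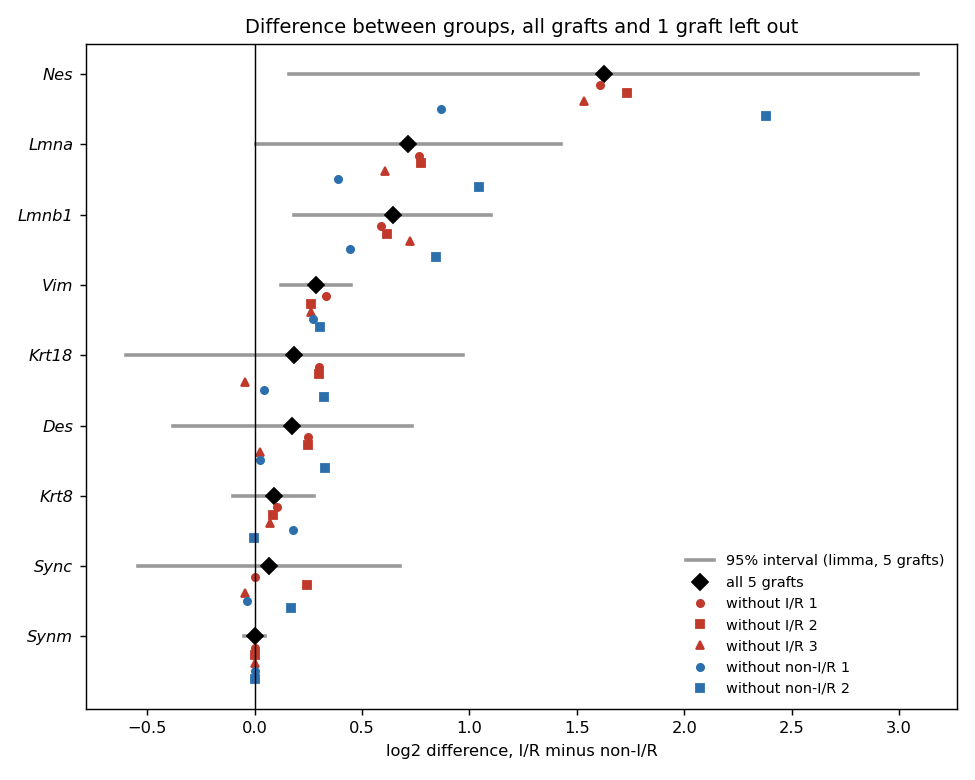
Log2 difference (I/R minus non-I/R) of each gene with all 5 grafts (diamond, with the 95% interval by limma as a grey bar) and with 1 graft left out at a time (small markers below it). The intervals of Nes, Lmna, Lmnb1 and Vim lie above 0, and leaving out non-I/R 1 brings Nes to 0.87 and Lmna to 0.39.

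Non-I/R 1 had the lowest signal of all 5 grafts in each of Nes, Vim, Lmna, Lmnb1, Des and Krt18. The mean of the neutrophil markers was also lowest in this graft, but some of them, including Ly6g, were lowest in non-I/R 2. Endothelial markers and smooth muscle and pericyte markers also had their lowest mean in non-I/R 1. Their deviations from the average over all grafts were -0.13 and -0.19 there. Of 10 neutrophil markers, 6 were higher at an unadjusted p under 0.05 by limma, none was lower, and 9 had separated groups, with a median log2 difference of 0.90. Their mean deviation from the average over all grafts was 0.06, 0.82 and 0.30 in I/R 1, 2 and 3, and -0.76 and -0.43 in non-I/R 1 and 2. S100a8, an abundant neutrophil protein, measured 10.44, 11.07 and 10.57 in I/R 1, 2 and 3, against 9.57 and 10.11 in non-I/R 1 and 2. The highest graft in this list was I/R 2, in which Vim was nearly equal to its signal in I/R 3 (13.074 and 13.072). In I/R 2, Lmnb1 lay between the other I/R grafts, and Nes and Lmna were the lowest of the I/R grafts. The count of neutrophil markers past the threshold was 5 without I/R 1, 3 without I/R 2 and 1 without I/R 3. Of all 21789 probe sets, 1423, 1404 and 1024 were higher in these fits, against 1664 with all grafts. The median difference of the neutrophil markers was 0.74 without non-I/R 1 and 1.10 without non-I/R 2. Macrophage markers ran otherwise, with their highest mean deviation in non-I/R 1 (0.36). Neutrophils hold vimentin and lamin B1, and their part in the signals of Vim and Lmnb1 was not tested.

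Cardiomyocyte markers moved the other way. By limma, 8 of 10 were lower at an unadjusted p under 0.05 and none higher, against 7.35% and 7.64% of all probe sets. The median log2 difference of the cardiomyocyte markers was -0.52. Their mean deviations were -0.26, -0.39 and -0.02 in I/R 1, 2 and 3, and 0.38 and 0.30 in non-I/R 1 and 2. The count of lower markers was 3 without I/R 1, 5 without I/R 2 and 10 without I/R 3. Of all 21789 probe sets, 1475, 1256 and 1041 were lower in these fits. The median of the cardiomyocyte markers was -0.47 without non-I/R 1 and -0.63 without non-I/R 2. Des, itself a muscle gene, was highest in I/R 3, the I/R graft with the highest cardiomyocyte markers, but lowest in non-I/R 1, where these markers were highest of all grafts. The part of muscle content in the filament signals was not tested.

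Other cells of the graft can hold vimentin or nestin too, and their markers are given here. Of 10 genes each, at an unadjusted p under 0.05 by limma, 1 fibroblast marker was lower (median log2 difference -0.20) and 1 endothelial marker was higher (median 0.13). Among smooth muscle and pericyte markers 1 was higher (median 0.01), and no macrophage marker passed (median -0.10). Over all probe sets, 7.64% were higher and 7.35% lower. The smooth muscle and pericyte list was split, with 3 genes separated with I/R on top and 3 with I/R below (differences from -0.75 to 0.82). Separated counts were 1 and 2 for fibroblast, 3 and 1 for endothelial and 1 and 1 for macrophage markers, against 15.8% and 16.2% of all probe sets. The counts past the unadjusted threshold turned with single grafts. No fibroblast marker passed with any 1 of the I/R grafts left out. For endothelial markers the counts were 3 higher and 1 lower without I/R 1, 2 higher without I/R 2 and 0 without I/R 3. For smooth muscle and pericyte markers they were 1 higher without I/R 1 and 2 lower without I/R 2. None of these passed in either direction without I/R 3. Over all 21789 probe sets, 1423, 1404 and 1024 were higher without I/R 1, 2 and 3, and 1475, 1256 and 1041 were lower. The fibroblast median was -0.04 without non-I/R 1 and -0.41 without non-I/R 2. For smooth muscle and pericyte markers these medians were -0.01 and 0.03. The macrophage median was -0.41 without non-I/R 2, and 0.22 if non-I/R 1 was left out instead. Of 5 Schwann cell markers, which accompany nestin in nerves, none passed (median -0.07). Cell division markers had a median of 0.34 with 0 of 9 past the threshold, and this median was 0.04 without I/R 1, the only graft with a high deviation (0.91). Without both grafts of the highest Myl7 signal, Nes differed by 0.98 (limma unadjusted p = 0.0282), Vim by 0.25 (unadjusted p = 0.176), Lmna by 0.45 (unadjusted p = 0.234) and Lmnb1 by 0.42 (unadjusted p = 0.203).

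**Figure D3:**
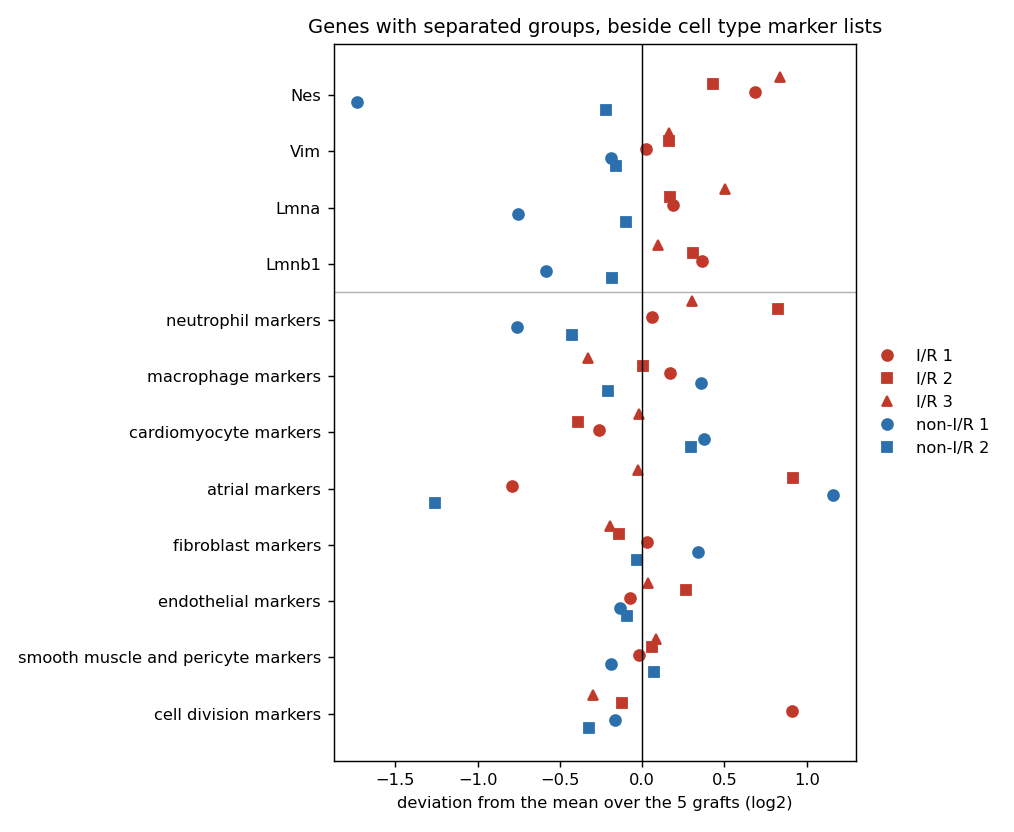
Deviation of each graft from the mean over the 5 grafts (log2) for the 4 genes with separated groups, above the line, and for the mean of each cell type marker list, below it. Non-I/R 1 (blue circle) is lowest for Nes, Vim, Lmna and Lmnb1. It is also lowest for the means of the neutrophil, the endothelial and the smooth muscle and pericyte markers. The atrial markers spread widely within both groups.

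The remaining filament genes of the family are mostly keratins. Of 58 listed, 55 were measured, and 43 of these had tied values, against 53.8% of all probe sets tested. At an unadjusted p under 0.05 by limma 1 was higher and 1 lower, against 7.64% and 7.35% of all probe sets. The median log2 difference was -0.05. Mean signals were lower in I/R grafts for 38 of the 55 and higher for 13. Krt80, a keratin of epithelia, was the higher one, at 8.72, 8.47 and 8.77 on the log2 scale in I/R 1, 2 and 3, against 7.44 and 8.06 in non-I/R 1 and 2. It differed by 0.91 (SE 0.232, limma unadjusted p = 0.0191, adjusted p = 0.287), again with non-I/R 1 lowest. The lower one was the hair keratin Krt31, which was dim and differed by -0.11. Lamin B2 (Lmnb2), the third lamin gene, differed by 0.21 (limma unadjusted p = 0.0644) and had separated groups. Without non-I/R 2 the median of the 55 genes was -0.04, with higher means for 14 and lower means for 37. Without non-I/R 1 it was -0.03, with higher means for 12 and lower means for 38.

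Proteins that anchor or chaperone the filaments were examined next. By limma, 6 of 16 cytolinkers and filament chaperones were lower at an unadjusted p under 0.05 and none was higher. Over all probe sets these shares were 7.35% and 7.64%. The median log2 difference of the list was -0.12, with lower means for 12 of the 16. Nebulette (Nebl), a Z-disc protein that binds desmin, was 9.90, 9.45 and 9.73 on the log2 scale in I/R 1, 2 and 3, against 11.08 and 10.81 in non-I/R 1 and 2. The I/R grafts were all below, by a mean of -1.25 (SE 0.178, limma adjusted p = 0.282), and a dimmer probe set of the same gene gave -0.72. Desmoplakin (Dsp), which holds desmin at the intercalated disc, differed by -0.75 (SE 0.176, limma adjusted p = 0.284). Dystrobrevin alpha (Dtna), a partner of syncoilin and synemin, differed by -0.70 (SE 0.126, limma adjusted p = 0.282). These partners, which heart muscle expresses strongly, were lower along with the cardiomyocyte markers, whose part in this was not tested. Des and Sync did not separate, and Synm, with a single value on all arrays, could not. Not all genes of the cytolinker list were lower. Filamin C (Flnc), with a log2 difference of 0.95, and plectin (Plec), with 0.36, had separated groups with I/R on top. Neither passed (limma unadjusted p = 0.1 and 0.0631). Flnc and Plec were named after their values were seen. The count of lower genes in this list was 4 without I/R 1 or without I/R 2, and 6 without I/R 3. Of all 21789 probe sets, 1475, 1256 and 1041 were lower without I/R 1, 2 and 3. The median of the list was -0.08 without non-I/R 1.

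Of 16 partners and processing enzymes of the nuclear lamina, 2 were higher at an unadjusted p under 0.05 by limma, none was lower, and the median log2 difference was 0.09. Syne3, which encodes nesprin-3 and links the nuclear envelope to plectin and the filaments, was 7.59, 7.64 and 7.73 on the log2 scale in I/R 1, 2 and 3, and 7.31 and 7.33 in non-I/R 1 and 2. It differed by 0.33 (SE 0.0499, limma adjusted p = 0.282). The lamin B receptor (Lbr), which binds B-type lamins, was 9.89 in I/R 1 and higher in I/R 2 and 3, against 9.74 and 9.67 in non-I/R 1 and 2, a log2 difference of 0.26 (SE 0.05, limma adjusted p = 0.282). Both separated the groups without a single low non-I/R graft. Tmpo, whose lamina-associated products bind lamins, differed by 0.28 and did not pass (limma unadjusted p = 0.0799). Without I/R 2, 5 of the 16 were higher, against 1404 of all 21789 probe sets in that fit.

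**Figure D4:**
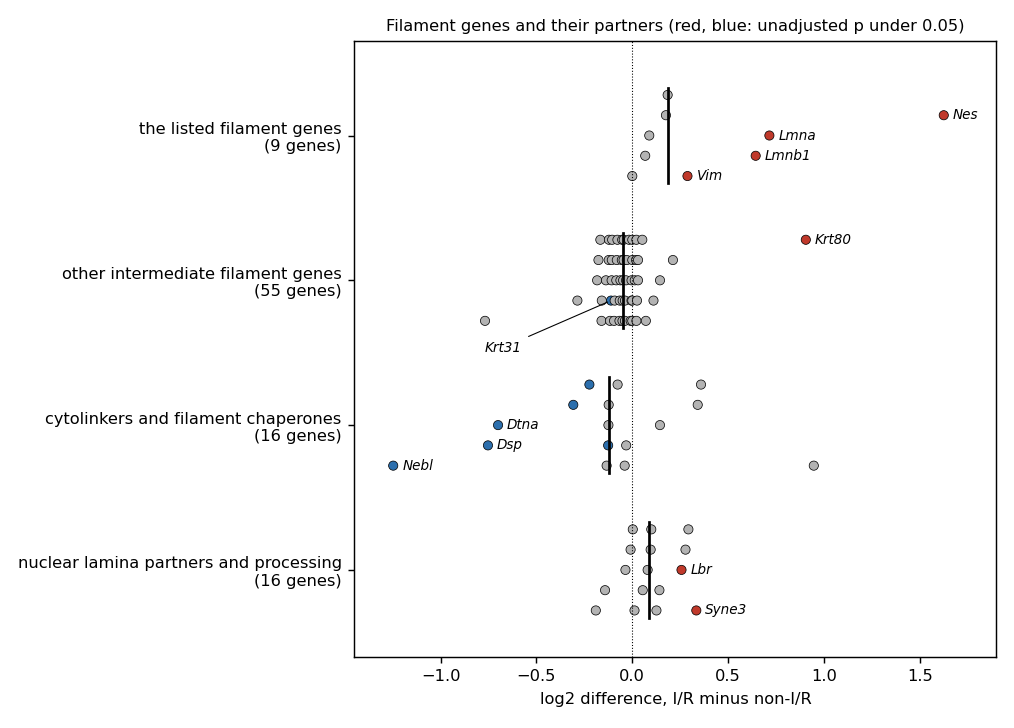
Log2 difference (I/R minus non-I/R) of each gene in 4 lists, 1 point for each gene, with the list median as a black bar and coloured points at an unadjusted p under 0.05 by limma (red higher, blue lower). The medians are 0.18 for the 9 filament genes, -0.05 for the other filament genes, -0.12 for cytolinkers and chaperones and 0.09 for lamina partners.

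The patterns of the 3 genes with the largest differences were then matched against all other genes by the root mean square difference of deviations over the 5 grafts, as a description. Nearest to Nes were Rnd1 at 0.183 log2 units, Trim16, a ubiquitin ligase, at 0.210, and the cytokine gene Clcf1 at 0.220. Rnd1 measured 9.39, 9.59 and 9.47 on the log2 scale in I/R 1, 2 and 3, against 7.14 and 8.63 in non-I/R 1 and 2. Like Nes, it had a non-I/R 1 graft far below non-I/R 2. Nearest to Lmna were Osbpl5, a lipid transfer protein, at 0.0253, the folate carrier Slc19a1 at 0.0358 and Pus7l, a pseudouridine synthase-like gene, at 0.0421. Nearest to Lmnb1 were the alpha-tubulin gene Tuba1a at 0.0322, the myeloid receptor Trem3 at 0.0473 and Phlda3, a p53 target, at 0.0493. With 5 grafts, such closeness over 21789 probe sets is a description of these arrays and nothing more.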

How the data were processed

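Gene expression arrays of 5 heart grafts (3 I/R, 2 non-I/R) were compared. The authors made the deposited log2 values with Partek and RMA (versions not given in the sources used here), a step that pulls arrays together and can hide a shift shared by most genes. Array number limits the precision. The log2 values were tested as deposited, without a filter, with limma 3.58.1 in R 4.3.3 (lmFit, eBayes, prior df 0.824), over 21789 probe sets with a single symbol in the platform annotation, and adjusted by Benjamini-Hochberg. Another 1621 probe sets have several symbols and 12146 are not listed. Gene IDs of 99.6% were found in the GRCm38.p6 table. A gene with several probe sets was represented by the brightest. Pairs of genes were compared by exact permutation tests in scipy 1.17.1 under Python 3.11.15. Figures were drawn with matplotlib 3.10.9. Of the lists shown beside the 9 genes, the 3 genes with the smallest p at most were named, with a cell type's first marker where it was described. The 9 genes and the 13 lists beside them were chosen with earlier results of these data known. The labels give no batch, date or pairing. The fit was tested on simulated data. Alternatives were other eBayes settings, the methods' t-test, array weights, 3 other normalizations, other sets of probe sets and leaving out each graft. Leaving out both grafts with the highest Myl7 signal, and leaving out probe sets with tied or equal values, were chosen after seeing the data.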

Additional observations from a re-analysis of the deposited data

How the results depend on the processing

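There were 156 values of the 9 genes under 15 planned and 3 added alternatives. Of these, 135 stayed on their side of the unadjusted threshold without reversing sign. The 135 include 15 of Synm, whose difference of 0 has no direction. Another 16 no longer passed the threshold, 1 newly passed it (Krt8, in a fit with 1 non-I/R graft) and 4 changed sign. All 16 losses fell on the 4 genes that had passed: of 18 values each, 4 for Nes, 2 for Vim, 6 for Lmna and 4 for Lmnb1. The count of higher genes was 2 of 9 by the methods' t-test and 1 of 9 without both grafts of the highest Myl7 signal, and it ran from 1 to 4 with 1 graft left out. Differences that changed sign with 1 graft left out ran from -0.0034 to 0.18 for Krt8, from -0.044 to 0.32 for Krt18 and from -0.045 to 0.24 for Sync. The cause was not tested. By the methods' t-test, 2 probe sets on the array passed an adjusted p of 0.05, against 0 by limma, where the unadjusted threshold called 1664 higher and 1601 lower. Without non-I/R 1 these were 1014 and 884. The next brightest probe set gave no value, since each gene has 1. No paired analysis was possible because the labels give no replicate numbers that pair the grafts.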
